A study of Mus with 16 samples.

Results

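Collagen chain genes were the protein-coding genes of the deposited count table whose symbol is Col, a number, a and a number, and 43 of 38087 genes met this rule. Of these 43 genes, 11 encode fibrillar chains, 6 encode the type IV chains of basement membranes, and 26 encode chains of other types. All 43 were found by symbol in the RefSeq gene table, and 42 had enough counts to be tested, the exception being Col8a2 with 109 counts over all libraries. RNA was sequenced from B16 melanoma, a mouse tumour line, grown under the skin of C57BL/6 mice, to learn what the loss of B cells changes when PD-L1, which restrains T cells through the checkpoint receptor PD-1, is blocked. In 4 groups of 4 libraries, tumours came from wild-type (WT) or B cell-depleted mice, each either untreated or given anti-PD-L1 antibody. Tumours had grown for 7 days, the antibody was given in 3 doses at intervals of 3 days, and treated tumours were collected 3 days after its final dose. How the 7 days relate to the doses is not given here, nor is the time at which untreated tumours were collected. A difference in age between treated and untreated tumours was not tested and cannot be told apart from the treatment. Age and sex are not given in the labels, the count columns call the depleted mice BKO, and how B cells were removed from them is not stated. The series' design text also names 3M-052, an agonist of Toll-like receptors, injected into tumours, but no label gives it to a sample. All tumours came from 1 transplanted line, which limits the groups as a model of melanoma.

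Collagens are trimers of alpha chains wound into a triple helix, and most are secreted into the extracellular matrix. Fibrillar collagens, with type I and type III the main ones of skin and tumour stroma, form the ropes that bear tension. Type IV collagen instead forms the sheet-like net under endothelium and epithelium, and the other types decorate fibrils, form beaded microfibrils, anchor epithelium or span the cell membrane. Fibroblasts are the main source of fibrillar chains in most tissues, while endothelial cells and pericytes deposit much of the type IV net of vessels.

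Total counts per library ran from 12.5 M to 35.6 M. Per gene, the counts cover the whole span from start to end with introns, on either strand, and levels are given as CPM, a gene's share of its library's counts on a common scale, with library sizes scaled by TMM. B cell status was checked with Igkc, the immunoglobulin kappa constant gene. It had 0 counts in the 8 depleted libraries and 39 and 26 counts over the WT untreated and WT treated groups, so B cell transcripts were scarce in WT tumours too. Igkc was highest in library C of the WT untreated group (1.42 CPM) and as low as 0.0276 CPM in library B of the WT treated group. Summed levels of the 7 listed B cell genes, Igkc among them, did not separate depleted from WT libraries. Without treatment the depleted sums spanned 1.41 to 2.99 CPM, against 1.83 to 6.14 for WT. Under treatment they spanned 1.58 to 2.40 CPM, against 1.95 to 2.74 for WT. The 7 melanoma genes, such as Mlana, summed to between 17781 and 22495 CPM in every library. Library B of the depleted untreated group stood apart: its GC slope, the change of log2 CPM per 10 percentage points of GC content of a gene, was -0.72, against -0.46 to 0.32 in the other 15 libraries. GC slopes also went with the groups, from 0.14 to 0.25 in WT untreated, -0.46 to -0.09 in WT treated, -0.72 to 0.32 in depleted untreated and -0.04 to 0.22 in depleted treated libraries. Their part in the results below was not tested beyond a fit with the slope as a covariate.

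Type IV chains gave the most collagen counts. The 43 genes summed to 901 ± 197 CPM in WT untreated, 886 ± 101 in WT treated, 956 ± 285 in depleted untreated and 1180.0 ± 312 in depleted treated tumours (SD, n = 4). Their ranges were 673 to 1148, 765 to 999.9, 649 to 1331 and 799 to 1518 CPM in the same order, so all 4 groups overlapped. Over the 16 libraries, basement membrane chains took a mean of 39.9% of the summed collagen CPM, fibrillar chains 28.7% and the other chains 31.4%. Fibrillar chains took 24.5% ± 2.91 in WT treated and 31.4% ± 5.87 in depleted treated tumours, with ranges of 21.0% to 27.7% and 26.7% to 40.0% that overlapped. In bulk tumour RNA, fewer cells of a type and less RNA per cell cannot be told apart.

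Per kb of gene span, the order was different. Spans include introns, so this order also depends on span length and is only a rough comparison between genes. Col1a1 spans 16.8 kb and Col6a1 17.4 kb, but Col4a1 spans 114 kb and Col4a2 136 kb. Col1a1, a chain of type I collagen (chromosome 11, 94936224 to 94953042, + strand, mm10), led with a mean level of 3.69 CPM per kb, followed by Col4a1 at 1.73, Col6a1 at 1.72, Col2a1 at 1.56, Col1a2 at 1.49, Col16a1 at 1.40, Col3a1 at 1.24 and Col4a2 at 1.14 CPM per kb. The other 35 genes were at or under 0.882 CPM per kb, the level of Col6a2, and the lowest was Col28a1 at 0.00302. Chains also differed in how far libraries spread. The coefficient of variation of CPM over 16 libraries was 83.3% for Col2a1, 69.5% for Col9a1, 63.8% for Col11a2, 63.4% for Col1a2 and 59.7% for Col1a1, but 23.2% for Col4a1 and 20.3% for Col4a4.

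Type I collagen, the main fibril of skin, is a trimer of chains from Col1a1 and Col1a2 (chromosome 6, 4504814 to 4541543, + strand). Col1a1 was at 34.9, 107, 53.4 and 72.7 CPM in WT untreated libraries A to D, 81.3, 29.7, 40.0 and 39.1 in depleted untreated, 60.5, 64.5, 29.8 and 25.3 in WT treated and 29.0, 101, 61.0 and 163 in depleted treated libraries. Col1a2 was at 32.3, 95.9, 59.2 and 62.4 CPM in WT untreated libraries A to D, 66.2, 26.3, 32.0 and 24.1 in depleted untreated, 57.2, 42.8, 25.7 and 26.0 in WT treated and 26.8, 84.7, 58.6 and 154 in depleted treated libraries. Libraries B and D of the depleted treated group and library B of the WT untreated group were high for both genes, while the lowest library of each group was at 34.9, 29.7, 25.3 and 29.0 CPM for Col1a1. Group means of Col1a1 were 67.1 ± 30.9 CPM in WT untreated, 45.0 ± 20.3 in WT treated, 47.5 ± 23.0 in depleted untreated and 88.4 ± 57.7 in depleted treated tumours (SD, n = 4), and all groups overlapped.

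Col3a1, the chain of type III collagen in skin and vessel walls (chromosome 1, 45311538 to 45349706, + strand), was at 21.9, 69.4, 36.7 and 37.3 CPM in WT untreated libraries A to D, 59.7, 57.0, 38.6 and 20.7 in depleted untreated, 62.5, 34.5, 35.0 and 58.5 in WT treated and 26.5, 70.3, 41.5 and 85.6 in depleted treated libraries. Its means, 41.3 ± 20.0, 44.0 ± 18.1, 47.7 ± 15.0 and 56.0 ± 26.8 CPM (SD, n = 4), differed by less than the spread within groups. Type V chains, which join type I fibrils and limit their width, ran from 10.1 to 34.7 CPM for Col5a1, 5.62 to 21.1 for Col5a2 and 11.3 to 48.1 for Col5a3. The minor fibrillar chain Col24a1 ran from 0.711 to 2.10 CPM.

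Among type IV chains, Col4a1 and Col4a2 form the net found in nearly all basement membranes and lie head to head on chromosome 8 (Col4a1 at 11198423 to 11312826 and Col4a2 at 11312805 to 11449287). Col4a1 was at 135, 189, 169 and 176 CPM in WT untreated libraries A to D, 287, 146, 154 and 178 in depleted untreated, 227, 180.5, 206 and 229 in WT treated and 150.0, 278, 225 and 241 in depleted treated libraries. Col4a2 was at 115, 152, 155 and 162 CPM in WT untreated libraries A to D, 215, 78.0, 139 and 135 in depleted untreated, 187, 135, 138 and 147 in WT treated and 112, 228, 198 and 206 in depleted treated libraries. Library A of the depleted untreated group was the highest for Col4a1, library B of the depleted treated group was the highest for Col4a2, and all groups overlapped. Since strand was not used, a part of the Col4a1 span (5.3%) is also that of the antisense gene Gm15418, and 13.7% of the Col4a2 span is that of Gm15419.

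Col4a4 (chromosome 1, 82452558 to 82586849, - strand) and Col4a5 (chromosome X, 141475385 to 141689234, + strand) belong to the type IV nets of kidney and other specialised basement membranes. Col4a4 was at 12.9, 15.3, 12.6 and 14.9 CPM in WT untreated libraries A to D, 13.8, 23.1, 16.2 and 12.9 in depleted untreated, 17.1, 17.2, 20.0 and 22.6 in WT treated and 13.7, 18.5, 18.0 and 14.2 in depleted treated libraries. Col4a5 was at 10.97, 11.3, 8.33 and 10.4 CPM in WT untreated libraries A to D, 15.0, 21.8, 12.7 and 12.5 in depleted untreated, 12.7, 12.7, 12.3 and 26.4 in WT treated and 12.6, 9.98, 13.9 and 12.2 in depleted treated libraries. Library D of the WT treated group was the highest in the series for Col4a5, followed by library B of the depleted untreated group, and library B of the depleted untreated group was the highest for Col4a4. These are also the libraries with the lowest GC slopes of the series, -0.46 and -0.72. Col4a3 and Col4a6 stayed between 0.316 and 1.58 CPM in every library.

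Col6a1, a chain of the type VI beaded microfibrils (chromosome 10, 76708792 to 76726168, - strand), was at 15.3, 36.1, 33.6 and 31.0 CPM in WT untreated libraries A to D, 34.1, 18.2, 25.7 and 17.1 in depleted untreated, 39.7, 23.8, 24.8 and 25.6 in WT treated and 19.4, 44.9, 32.4 and 57.4 in depleted treated libraries. Depleted treated libraries D and B were the highest, and the groups overlapped. Its partners Col6a2 and Col6a3 ran from 12.6 to 45.0 and from 15.2 to 50.4 CPM, and the alternative chains Col6a4, Col6a5 and Col6a6 were low, with means over 16 libraries of 0.610, 0.341 and 3.30 CPM.

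**Figure D1:**
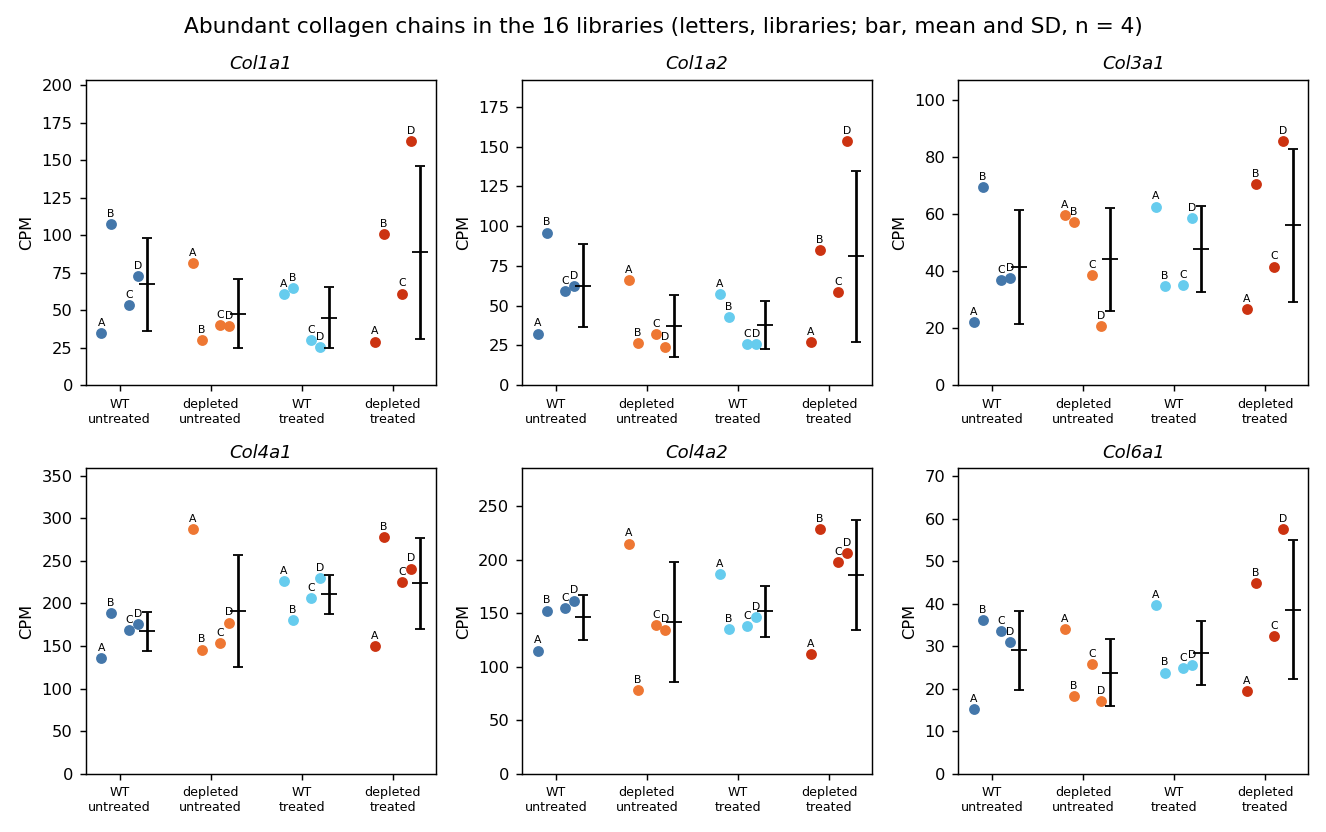
CPM of 6 abundant collagen chains (vertical axes, linear from 0) in the 4 groups; points are libraries with their letters, and bars are the group mean and SD (n = 4). Libraries B and D of the depleted treated group are high for Col1a1 and Col1a2 (101 and 163 CPM, 84.7 and 154 CPM), and every group overlaps the others in all 6 panels.

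Other chains of high CPM were those attached to basement membranes and fibrils. Col16a1, a fibril-associated chain (FACIT, chromosome 4, 130047840 to 130099283, + strand), was at 74.8, 76.3, 79.7 and 87.8 CPM in WT untreated libraries A to D, 92.7, 29.9, 65.5 and 81.3 in depleted untreated, 59.5, 66.1, 45.9 and 64.9 in WT treated and 64.3, 86.7, 95.2 and 80.1 in depleted treated libraries. Library B of the depleted untreated group was the lowest in the series, and the 4 WT treated libraries lay under the 4 WT untreated ones. Col18a1, a multiplexin of vascular basement membranes whose end is cut off as endostatin (chromosome 10, 77052178 to 77166548, - strand), was at 36.3, 71.7, 40.9 and 48.2 CPM in WT untreated libraries A to D, 82.4, 32.9, 63.7 and 69.3 in depleted untreated, 49.1, 44.5, 41.1 and 45.9 in WT treated and 52.7, 56.4, 51.9 and 84.7 in depleted treated libraries. Library D of the depleted treated group and library A of the depleted untreated group were the highest, and a part of the Col18a1 span (7.7%) is shared with Slc19a1. Col15a1, the other multiplexin (chromosome 4, 47208161 to 47313167, + strand), was at 33.0, 47.2, 34.6 and 41.3 CPM in WT untreated libraries A to D, 54.7, 27.7, 33.3 and 29.5 in depleted untreated, 46.5, 41.5, 34.2 and 36.5 in WT treated and 25.3, 63.3, 45.6 and 55.3 in depleted treated libraries, with library B of the depleted treated group the highest and all groups overlapping.

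The remaining chains were low. Col23a1, a transmembrane collagen, had a mean of 6.16 CPM over 16 libraries. Means of the FACIT chains Col12a1 and Col14a1, which coat type I fibrils, were 3.64 and 2.58 CPM. Col17a1, a hemidesmosome chain of keratinocytes, had 0.376 CPM, and Krt14, a keratin of basal keratinocytes, ran from 0 to 0.458 CPM in 15 libraries and was at 1.30 CPM in library D of the depleted treated group.

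To ask what B cells changed under treatment, depleted treated tumours were compared with WT treated tumours. Collagen chains were higher on average in the depleted tumours, but 0 of 42 tested genes passed an adjusted p of 0.05 in edgeR. Over all 19340 genes, 0.698% passed. At an unadjusted p under 0.05, 7 of 42 collagen genes (16.7%) were counted, all 7 higher, against 25.0% of all genes, so the share of collagen genes lay under the background. DESeq2 called 3 collagen genes and limma voom 0, against 7.72% and 0.372% of all genes. The median log2 change of the collagen genes was 0.31, against 0.03 over all genes. Of the collagen genes 33 of 42 were above 0, against 10088 of all 19340 genes. Collagen genes were measured in the same libraries, so their signs are not independent of each other. By class, the medians were 0.75 for the 11 fibrillar genes, all above 0, -0.07 for the 6 type IV genes and 0.28 for the 25 others. With the GC slope as a covariate the median over the 42 genes was 0.13.

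Lowest p-values in that comparison belonged to Col20a1, Col7a1 and Col27a1. Col20a1, a FACIT chain first described in the chick (chromosome 2, 180986535 to 181017540, + strand), was at 5.93, 3.95, 6.46 and 5.03 CPM in WT untreated libraries A to D, 6.81, 3.83, 5.99 and 7.25 in depleted untreated, 2.20, 4.50, 3.99 and 5.56 in WT treated and 7.58, 9.63, 6.73 and 7.98 in depleted treated libraries. The 4 depleted treated libraries lay above the 4 WT treated ones (log2 change 0.97 ± 0.26 (SE), adjusted p = 0.073). Col7a1, the chain of the fibrils that anchor epidermis to dermis (chromosome 9, 108953586 to 108984875, + strand), was at 0.535, 1.42, 1.56 and 0.886 CPM in WT untreated libraries A to D, 1.15, 0.638, 1.07 and 1.52 in depleted untreated, 0.973, 0.912, 0.498 and 0.614 in WT treated and 1.18, 2.16, 1.85 and 2.10 in depleted treated libraries. Again the 4 depleted treated libraries lay above the 4 WT treated ones (log2 change 1.29 ± 0.35 (SE), adjusted p = 0.076). Col27a1, a minor fibrillar chain of cartilage (chromosome 4, 63214004 to 63334991, + strand), was at 3.02, 3.03, 3.62 and 3.29 CPM in WT untreated libraries A to D, 3.94, 1.91, 3.14 and 3.08 in depleted untreated, 3.57, 2.57, 2.19 and 1.99 in WT treated and 3.08, 6.52, 4.12 and 4.62 in depleted treated libraries. Library A of the depleted treated group was within the WT treated range, and the others were above it (log2 change 0.84 ± 0.26 (SE), adjusted p = 0.092).

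In all, the groups did not overlap in 6 of 42 collagen genes (14.3%), Col7a1, Col9a2, Col9a3, Col18a1, Col20a1 and Col25a1, each higher in depleted tumours, against 21.8% of all genes. Type I chains were higher by 0.98 ± 0.46 (SE) for Col1a1 and 1.10 ± 0.45 (SE) for Col1a2 on the log2 scale (adjusted p = 0.20 and 0.16), with libraries A and C of the depleted group inside the WT range for Col1a1, and without library D of that group the changes were 0.50 for Col1a1 and 0.58 for Col1a2. The type IV chains Col4a1 (log2 change 0.09 ± 0.21 (SE), adjusted p = 0.81) and Col4a2 (log2 change 0.29 ± 0.25 (SE), adjusted p = 0.45) were not called, nor were Col3a1 (log2 change 0.24 ± 0.39 (SE), adjusted p = 0.71) and Col6a1 (log2 change 0.44 ± 0.32 (SE), adjusted p = 0.38). Calls depended on a library outside both groups: without library B of the depleted untreated group, whose spread enters the shared error, 4 of 43 genes were called, Col7a1, Col20a1, Col27a1 and Col16a1, when 18.6% of all genes were. Once the GC slope was a covariate, the log2 changes of Col27a1 and Col7a1 were 0.53 and 0.87 (adjusted p = 0.32 and 0.27).

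**Figure D2:**
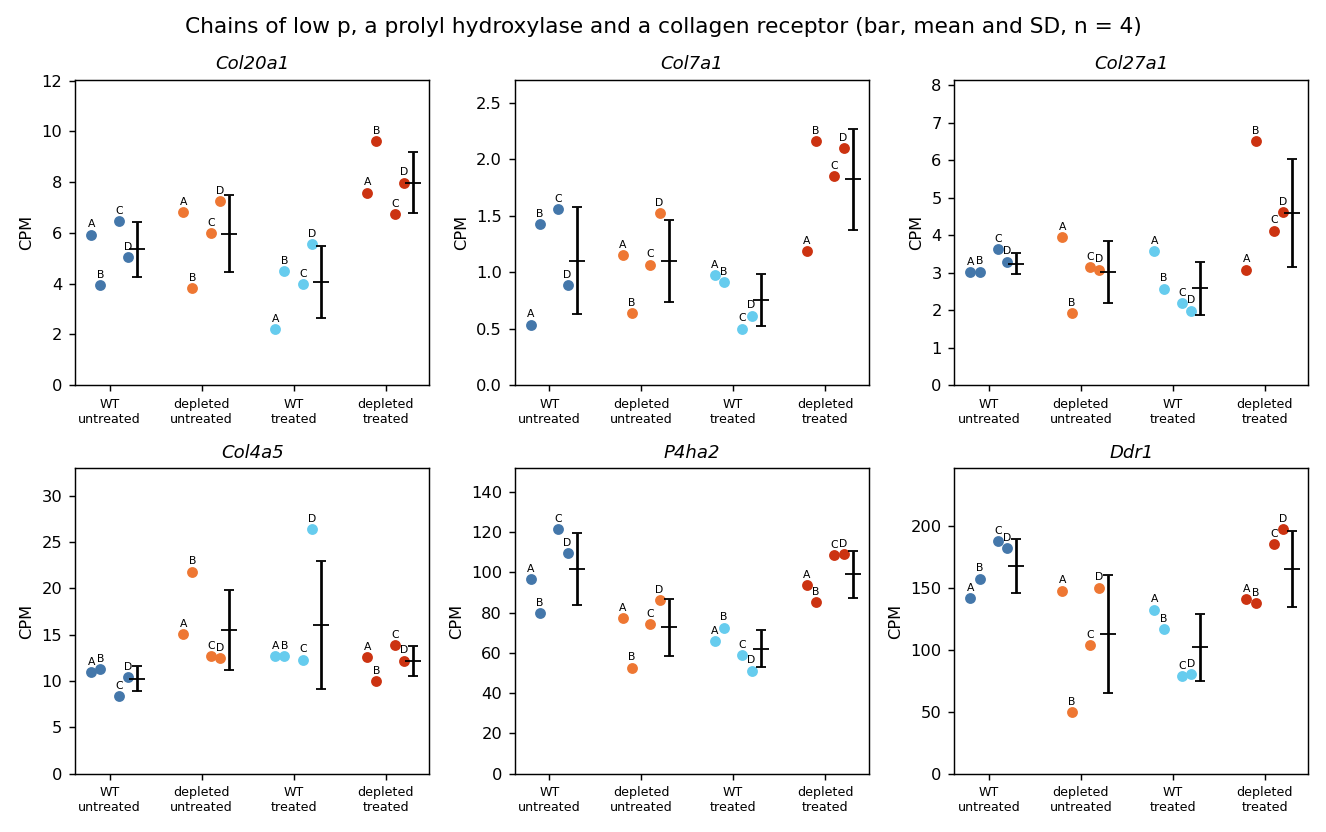
CPM (vertical axes, linear from 0) of 4 collagen chains with low p-values and of the collagen enzyme gene P4ha2 and the collagen receptor gene Ddr1 in the 4 groups; points are libraries with their letters, and bars are the group mean and SD (n = 4). For Col20a1 and Col7a1 the depleted treated libraries lie above the WT treated ones, from 6.73 against at most 5.56 CPM and from 1.18 against at most 0.973 CPM.

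Without treatment, depleted tumours were compared with WT tumours in the same way. No collagen chain was called: 0 of 42 genes passed the adjusted threshold in edgeR, against 0.889% of all genes. The changes furthest above 0 were those of Col2a1, Col11a2, Col9a1 and Col11a1 (1.51, 1.41, 1.18 and 0.95 on the log2 scale), all chains known from cartilage, and other chains of cartilage were at 0.49 for Col9a2, 0.52 for Col9a3 and -0.09 for Col27a1. At an unadjusted p under 0.05 there were 8 collagen genes (19.0%), 7 higher and 1 lower, against 19.2% of all genes, so the share was that of the background. DESeq2 called 1 and limma voom 0, against 5.13% and 1.16% of all genes. The median log2 change was 0.15, against 0.04 over all genes, and was 0.09, 0.21 and 0.14 for fibrillar, type IV and other chains. Of the collagen genes 27 of 42 were above 0, against 10375 of all 19340 genes. Groups did not overlap in 3 of 42 genes (7.14%), Col4a5 and Col28a1 higher and Col6a6 lower in depleted tumours, against 12.7% of all genes.

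Col11a2, a chain of the thin fibrils that type II collagen forms in cartilage (chromosome 17, 34039437 to 34066685, + strand), was at 8.91, 7.65, 6.96 and 4.84 CPM in WT untreated libraries A to D, 22.2, 5.04, 13.0 and 34.4 in depleted untreated, 3.89, 7.52, 8.59 and 14.2 in WT treated and 17.1, 15.9, 13.0 and 11.5 in depleted treated libraries. In untreated tumours, 3 of 4 depleted libraries were above all WT libraries, and library B was within their range (log2 change 1.41 ± 0.43 (SE), adjusted p = 0.11). Without library B of the depleted group Col11a2 was the only collagen gene called, at a log2 change of 1.73 (adjusted p = 0.036), when 1.03% of all genes were. Col11a1, its partner (chromosome 3, 114030540 to 114220718, + strand), was at 1.26, 2.42, 0.779 and 1.23 CPM in WT untreated libraries A to D, 2.92, 2.74, 2.16 and 3.28 in depleted untreated, 0.973, 1.96, 0.997 and 2.09 in WT treated and 3.16, 2.37, 1.69 and 3.51 in depleted treated libraries. Library B of the WT untreated group was the only one of that group in the range of the depleted untreated group (log2 change 0.95 ± 0.35 (SE), adjusted p = 0.16). Col6a6, an alternative type VI chain (chromosome 9, 105689417 to 105828085, - strand), was at 4.21, 4.63, 3.71 and 4.94 CPM in WT untreated libraries A to D, 2.08, 3.06, 1.13 and 2.76 in depleted untreated, 2.60, 3.59, 2.11 and 6.25 in WT treated and 4.11, 2.34, 3.81 and 1.49 in depleted treated libraries. All 4 depleted untreated libraries lay under the WT untreated ones (log2 change -0.97 ± 0.37 (SE), adjusted p = 0.18), but on the authors' log2 values its change had the opposite sign, 0.36 (adjusted p = 0.63).

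Type I chains were lower on average in untreated depleted tumours, without a call, at -0.50 ± 0.46 (SE) for Col1a1 and -0.75 ± 0.45 (SE) for Col1a2 on the log2 scale (adjusted p = 0.56 and 0.37). Col3a1 (log2 change 0.09 ± 0.39 (SE), adjusted p = 0.92), Col4a1 (log2 change 0.19 ± 0.21 (SE), adjusted p = 0.62), Col4a2 (log2 change -0.04 ± 0.25 (SE), adjusted p = 0.93) and Col6a1 (log2 change -0.29 ± 0.32 (SE), adjusted p = 0.63) had changes smaller than their SE. Library B, which stood apart by its GC slope, was the lowest of the 16 for Col4a2, Col16a1, Col5a1 and Col5a3, and the part of the slope in these low values was not tested.

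**Figure D3:**
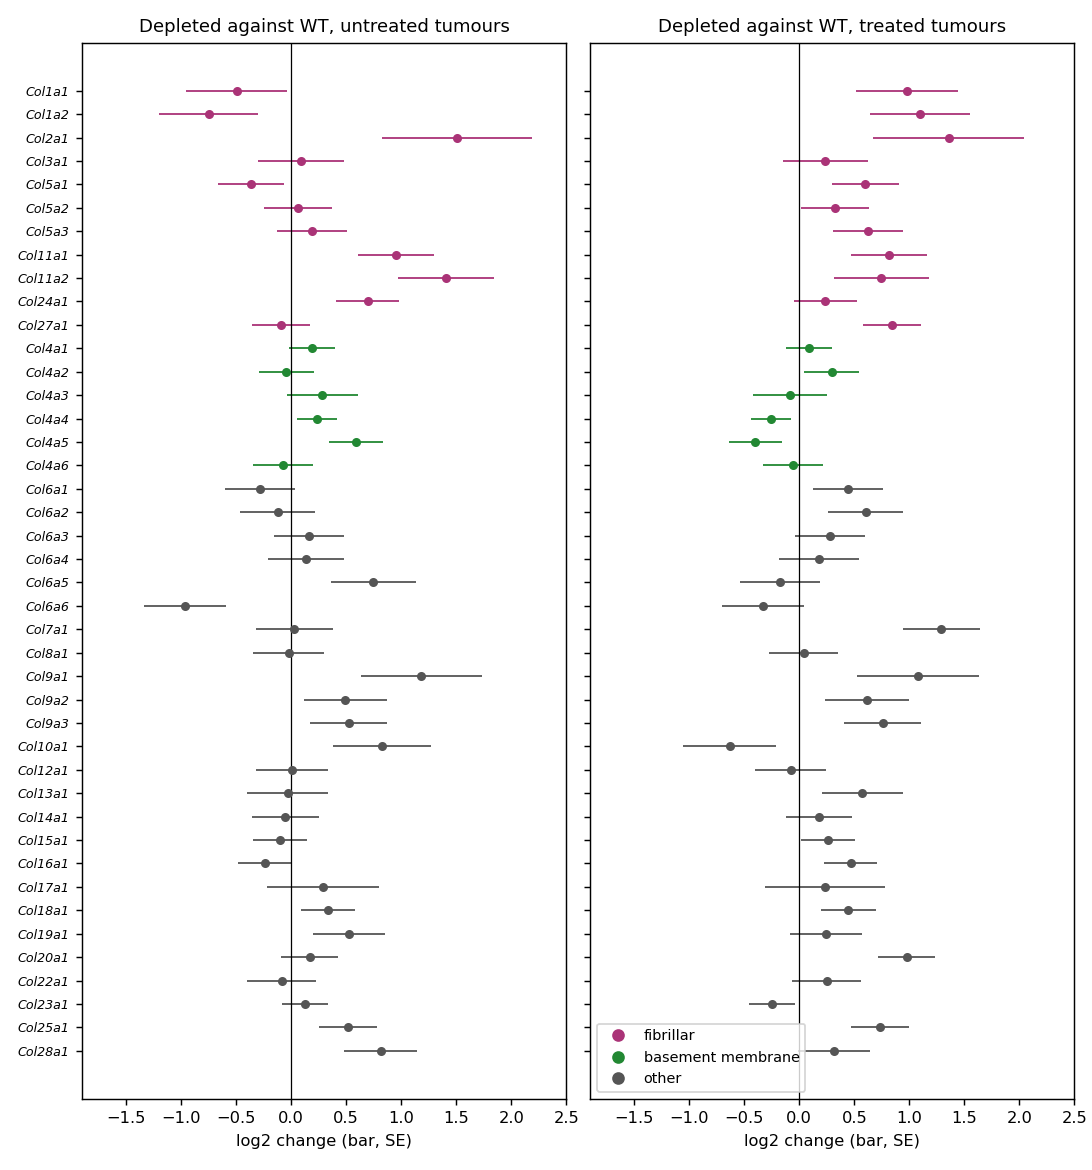
Log2 change of the 42 tested collagen genes in depleted against WT tumours (horizontal axes; points are the edgeR estimates and bars the SE), untreated on the left and treated on the right, coloured by class. In treated tumours the 11 fibrillar genes lie between 0.24 and 1.36 and the 6 type IV genes between -0.40 and 0.29; no gene passed the adjusted threshold in either panel.

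Of the chains known from cartilage, Col2a1, Col9a1, Col11a1 and Col11a2 were then looked at in each library, a choice made after their values were seen. Type II collagen (Col2a1, chromosome 15, 97975602 to 98004695, - strand) is the main fibril of cartilage, and type IX chains (Col9a1, Col9a2 and Col9a3) sit on its surface. Col2a1 was at 17.0, 66.4, 5.54 and 17.1 CPM in WT untreated libraries A to D, 65.0, 23.7, 74.3 and 139 in depleted untreated, 6.70, 23.5, 18.9 and 39.8 in WT treated and 85.5, 20.0, 31.1 and 92.1 in depleted treated libraries. Means were 26.5 ± 27.1 and 75.4 ± 47.6 CPM in WT and depleted untreated tumours and 22.2 ± 13.7 and 57.2 ± 36.9 CPM in WT and depleted treated tumours (SD, n = 4), and the groups overlapped. Col9a1 (chromosome 1, 24177610 to 24252684, + strand) was at 7.95, 20.9, 3.80 and 6.07 CPM in WT untreated libraries A to D, 22.2, 11.5, 18.0 and 36.0 in depleted untreated, 4.07, 9.06, 7.40 and 14.7 in WT treated and 33.7, 7.64, 7.97 and 25.8 in depleted treated libraries. Its highest libraries, D of the depleted untreated and A of the depleted treated group, were also those of high Col2a1.

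Averaged over both treatments, the B cell difference was 1.43 ± 0.48 (SE) for Col2a1, 1.13 ± 0.39 (SE) for Col9a1, 0.88 ± 0.25 (SE) for Col11a1 and 1.08 ± 0.30 (SE) for Col11a2 on the log2 scale, with adjusted p = 0.20, 0.21, 0.12 and 0.12. The other chains of cartilage were at 0.55 ± 0.27 (SE) for Col9a2, 0.64 ± 0.25 (SE) for Col9a3, 0.37 ± 0.18 (SE) for Col27a1 and 0.10 ± 0.31 (SE) for Col10a1 (adjusted p = 0.41, 0.28, 0.42 and 0.93). The transmembrane chain Col25a1 (chromosome 3, 130180891 to 130599877, + strand) was at 1.53, 1.71, 1.79 and 1.55 CPM in WT untreated libraries A to D, 1.77, 1.98, 2.07 and 3.51 in depleted untreated, 1.41, 1.49, 1.42 and 1.37 in WT treated and 3.16, 2.87, 1.50 and 2.02 in depleted treated libraries. Library D of the depleted untreated and libraries A and B of the depleted treated group were the highest (log2 change 0.62 ± 0.19 (SE), adjusted p = 0.14). In this contrast 0 of 42 collagen genes passed in edgeR, against 0.155% of all genes, and 12 had an unadjusted p under 0.05 (28.6%), 11 of them higher, against 12.6% of all genes. Once the GC slope was a covariate, 9 of 42 (21.4%) had an unadjusted p under 0.05, against 21.7% of all genes, so this share was then that of the background. DESeq2 called 3 collagen genes and limma voom 0, against 2.82% and 0.145% of all genes. Without library B of the depleted untreated group 6 of 43 were called, Col9a3, Col11a1, Col11a2, Col18a1, Col20a1 and Col25a1, when 6.25% of all genes were.

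Of 5 defining genes of cartilage, 3 were near 0 in every library and the other two were measured in all groups. Acan, the cartilage proteoglycan, was at most 0.422 CPM in any library, and Comp and Matn1 were at most 0.253 and 0.153 CPM. Sox9, the regulator of cartilage genes, had means of 7.80 ± 1.45, 6.22 ± 2.15, 6.44 ± 3.11 and 7.22 ± 2.81 CPM in WT untreated, depleted untreated, WT treated and depleted treated tumours (SD, n = 4). Hapln1, the protein that links aggrecan to hyaluronan, had 35.9 ± 5.50, 44.5 ± 11.5, 45.4 ± 5.34 and 40.0 ± 6.10 CPM in the same order, and gave most of the summed level. The 5 cartilage markers summed to 39.0 to 49.4, 39.9 to 70.0, 47.9 to 58.3 and 42.8 to 55.7 CPM in these groups, and 0 of 2 tested were called in any comparison.

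**Figure D4:**
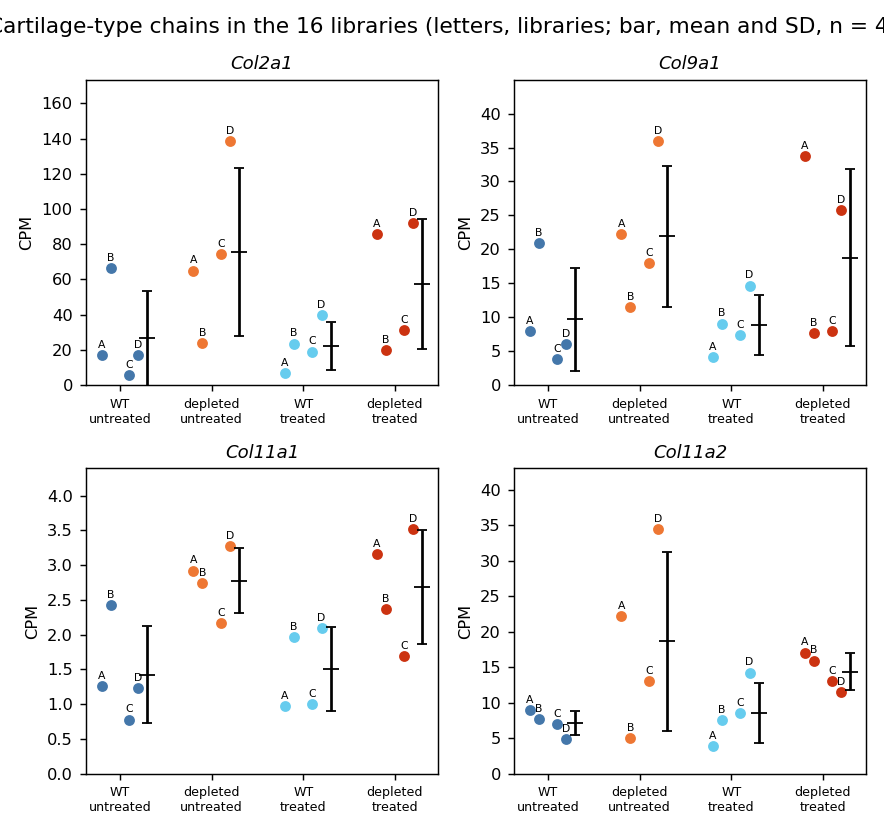
CPM of Col2a1, Col9a1, Col11a1 and Col11a2 (vertical axes, linear from 0) in the 4 groups; points are libraries with their letters, and bars are the group mean and SD (n = 4), cut at 0. Depleted groups have the higher mean in each panel, but for Col2a1 libraries A and B of the depleted untreated (65.0 and 23.7 CPM) and B and C of the depleted treated group (20.0 and 31.1 CPM) lie within the WT ranges.

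Treated and untreated tumours of WT mice were compared to ask what the antibody changed. No collagen gene of 42 was called by edgeR, where 1 gene of 19340 (0.00517%) was, and 4 (9.52%) had an unadjusted p under 0.05, all 4 higher, against 26.4% of all genes. DESeq2 and limma voom called 0, against 8.90% and 0.103% of all genes. The median log2 change was -0.11, against -0.01 over all genes, and -0.22 for fibrillar, 0.19 for type IV and -0.14 for other chains. In the fit with the GC slope the median was 0.14, of the opposite sign. Groups did not overlap in 5 of 42 genes (11.9%), against 31.2% of all genes: Col4a4, Col4a5 and Col10a1 were higher and Col16a1 and Col25a1 lower in treated tumours.

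Lowest p-values were those of Col10a1 (log2 change 1.20 ± 0.43 (SE), adjusted p = 0.12), Col4a5 (log2 change 0.64 ± 0.24 (SE), adjusted p = 0.13) and Col4a4 (log2 change 0.47 ± 0.18 (SE), adjusted p = 0.13). Col10a1, a chain of growth plate cartilage (chromosome 10, 34389981 to 34397085, + strand), was at 0.382, 0.676, 0.504 and 0.569 CPM in WT untreated libraries A to D, 0.354, 1.98, 0.721 and 0.891 in depleted untreated, 1.19, 0.746, 1.15 and 1.88 in WT treated and 1.26, 0.622, 0.577 and 0.840 in depleted treated libraries. Its whole span lies inside Nt5dc1 on the other strand, so its 367 counts cannot be assigned to it alone, and Nt5dc1 had a log2 change of 0.41 ± 0.20 (SE) in the same comparison. With the GC slope as a covariate the log2 changes were 0.45 for Col10a1, 0.25 for Col4a5 and 0.13 for Col4a4, with adjusted p = 0.70, 0.72 and 0.77. Without library B of the depleted untreated group, Col4a4, Col4a5, Col10a1 and Col16a1 were called, when 21.0% of all genes were. The change of Col4a5 was 0.29 (adjusted p = 0.46) without library D of the WT treated group, its highest library. Among the abundant chains, Col1a1 (log2 change -0.57 ± 0.46 (SE), adjusted p = 0.43), Col1a2 (log2 change -0.72 ± 0.45 (SE), adjusted p = 0.30), Col3a1 (log2 change 0.20 ± 0.39 (SE), adjusted p = 0.76), Col4a1 (log2 change 0.33 ± 0.21 (SE), adjusted p = 0.31), Col4a2 (log2 change 0.05 ± 0.25 (SE), adjusted p = 0.91) and Col6a1 (log2 change -0.03 ± 0.32 (SE), adjusted p = 0.97) were not called.

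In depleted mice, no collagen chain was called between treated and untreated tumours. Of 42 genes, 0 passed in edgeR, against 0.0672% of all genes, and 4 (9.52%) had an unadjusted p under 0.05, all 4 higher, against 10.4% of all genes. DESeq2 and limma voom called 0 collagen genes, against 1.74% and 0.0414% of all genes. The lowest p-values were those of Col1a2 (log2 change 1.13 ± 0.45 (SE), adjusted p = 0.39), Col27a1 (log2 change 0.61 ± 0.26 (SE), adjusted p = 0.42) and Col6a1 (log2 change 0.70 ± 0.32 (SE), adjusted p = 0.45), and Col1a1 stood at 0.90 ± 0.46 (SE) (adjusted p = 0.52). Without library D of the depleted treated group, the highest for type I chains, the changes were 0.61 for Col1a2, 0.42 for Col1a1 and 0.45 for Col6a1, and without library B of that group the change of Col27a1 was 0.38. The groups overlapped in all 42 genes, against 4.84% of all genes without overlap. Col3a1 (log2 change 0.35 ± 0.39 (SE), adjusted p = 0.75), Col4a1 (log2 change 0.23 ± 0.21 (SE), adjusted p = 0.70) and Col4a2 (log2 change 0.39 ± 0.25 (SE), adjusted p = 0.59) were not called. Median log2 changes were 0.09 over all 42 genes, 0.35 for fibrillar, 0.02 for type IV and 0.09 for other chains, against -0.01 over all genes.

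The interaction subtracts the untreated B cell difference from the treated one and tested whether B cell status changed the response. It called 7.62% of all genes and 0 of 42 collagen genes in edgeR. An unadjusted p under 0.05 was found in 8 collagen genes (19.0%), 6 above and 2 under 0, against 30.8% of all genes. DESeq2 called 2, Col1a2 and Col4a5, and limma voom 0, against 16.8% and 7.81% of all genes. The lowest p-values were those of Col1a2 (1.85 ± 0.64 (SE), adjusted p = 0.073), Col4a5 (-0.99 ± 0.34 (SE), adjusted p = 0.075) and Col7a1 (1.26 ± 0.49 (SE), adjusted p = 0.10) on the log2 scale. For Col1a2 the depleted mean was 80.9 ± 53.9 against 37.9 ± 15.1 CPM in treated tumours and 37.2 ± 19.6 against 62.4 ± 26.1 CPM in untreated tumours (SD, n = 4). Without library A of the depleted untreated group Col1a2 and Col10a1 were called, without library A of the depleted treated group Col1a2, and without library D of the depleted untreated group Col4a5. These fits called 14.8%, 5.86% and 19.9% of all genes. With the GC slope as a covariate no collagen gene had an unadjusted p under 0.05, and the values were 1.17 for Col1a2, -0.43 for Col4a5 and 0.63 for Col7a1 (adjusted p = 0.53, 0.54 and 0.58).

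Genes that make collagen were followed as a list of 30, of which 29 were tested and Mia3 was not analysed here. It held 0 called genes in the 4 pairwise comparisons and 1 in the interaction, which called 7.62% of all genes. This gene was P4ha2, a catalytic subunit of the prolyl 4-hydroxylase that stabilises the triple helix. P4ha2 was at 96.5, 79.9, 121 and 109 CPM in WT untreated libraries A to D, 77.3, 52.8, 74.4 and 86.4 in depleted untreated, 65.9, 72.6, 58.8 and 51.3 in WT treated and 93.7, 85.2, 108 and 109 in depleted treated libraries. In treated tumours the 4 depleted libraries were above the 4 WT ones, and in untreated tumours the depleted mean was the lower one (interaction log2 change 1.16 ± 0.23 (SE), adjusted p = 0.018). It was called in each of the 16 fits that left out 1 library, but with the GC slope as a covariate the change was 0.74 (adjusted p = 0.062). Serpinh1, the collagen chaperone HSP47, had the next lowest p (0.98 ± 0.31 (SE), adjusted p = 0.057), and was called without library A or D of the depleted untreated or A of the WT treated group. These fits called 14.8%, 19.9% and 10.3% of all genes. In treated tumours Pcolce, which speeds the trimming of procollagen, was higher in depleted than in WT mice without a call (log2 change 0.95 ± 0.26 (SE), adjusted p = 0.074), and was called without library B of the depleted untreated group (adjusted p = 0.0078), when 18.6% of all genes were. Summed levels of the list ran from 4511 to 5792 CPM in WT untreated, 4127 to 4552 in WT treated, 3758 to 4889 in depleted untreated and 4336 to 5399 in depleted treated libraries.

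Collagen breakdown was a list of 14 genes, 12 of them tested. Mmp13, a collagenase, was called in the interaction (-2.01 ± 0.59 (SE), adjusted p = 0.047) at a low level, with means of 0.373 ± 0.0300 CPM in WT untreated, 0.652 ± 0.229 in WT treated, 1.28 ± 0.636 in depleted untreated and 0.563 ± 0.159 in depleted treated tumours (SD, n = 4). In untreated tumours its depleted libraries A to C were high and D was at the WT level. The call was lost in 13 of the 16 fits that left out 1 library, and with the GC slope as a covariate the change was -1.50 (adjusted p = 0.28). Of all genes, 7.62% were called in the interaction. No other gene of the list was called in any comparison, and Mrc2, a receptor that takes up collagen, had the lowest p among them in treated tumours (log2 change 0.84 ± 0.34 (SE), adjusted p = 0.15), at 0.43 without library D of the depleted treated group.

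Of 9 collagen receptors, 8 were tested. Ddr1, a receptor tyrosine kinase that binds collagen, was called in the interaction (1.26 ± 0.38 (SE), adjusted p = 0.0497), right at the threshold. That test called 7.62% of all genes. Ddr1 was at 141, 157, 188 and 182 CPM in WT untreated libraries A to D, 148, 49.6, 103 and 150.2 in depleted untreated, 132, 116, 78.7 and 80.2 in WT treated and 141, 137, 185 and 197 in depleted treated libraries. Its lowest library was B of the depleted untreated group, and the depleted treated libraries were above the WT treated ones. Its change was 0.43 with the GC slope as a covariate (adjusted p = 0.25). None of 15 tested basement membrane partners was called in any of the 5 comparisons, with Lamb2, the laminin beta 2 chain, at the lowest p in treated tumours (log2 change 0.51 ± 0.19 (SE), adjusted p = 0.13, and 0.015 without library B of the depleted untreated group). Without that library, 18.6% of all genes were called.

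The list of TGF-beta signal and targets, the main growth factor pathway that induces fibrillar collagen, had 18 tested genes. Cyr61, a matricellular target, was lower in depleted than in WT untreated tumours (log2 change -1.08 ± 0.22 (SE), adjusted p = 0.035), with 37.0, 41.5, 38.7 and 39.2 CPM in depleted libraries A to D against 69.8, 64.1, 97.7 and 98.9 CPM in WT libraries. This call was lost in 6 of the 16 fits that left out 1 library, and 0.889% of all genes were called in this comparison. Cyr61 was also called in the interaction (1.44 ± 0.31 (SE), adjusted p = 0.019), which called 7.62% of all genes. Smad4, the Smad shared by the branches of the pathway, was called in the interaction with the opposite sign (-0.84 ± 0.24 (SE), adjusted p = 0.042). With the GC slope as a covariate neither was called in the interaction, at 1.31 for Cyr61 and -0.38 for Smad4 (adjusted p = 0.10 and 0.32). Neither Tgfb1, Tgfb2 nor Tgfb3 nor another gene of the list was called in any of the 5 comparisons.

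Fibroblast markers were scarce in these tumours except for Fbln1. Dcn, a proteoglycan of fibroblasts that binds collagen, had means of 2.18 ± 1.64, 1.62 ± 0.376, 1.66 ± 0.984 and 3.31 ± 1.43 CPM in WT untreated, depleted untreated, WT treated and depleted treated tumours, and Pdgfra, a receptor that marks fibroblasts, had 0.744 ± 0.258, 1.17 ± 0.198, 0.964 ± 0.221 and 1.42 ± 0.437 CPM (SD, n = 4). The 7 fibroblast markers summed to 237 to 299, 121 to 224, 156 to 203 and 198 to 291 CPM in these groups, and most of it was Fbln1, a matrix protein, which was called in the interaction (0.92 ± 0.24 (SE), adjusted p = 0.036). It was 0.44 with the GC slope as a covariate (adjusted p = 0.20), and the call was lost in 11 of the 16 fits that left out 1 library. Of all genes, 7.62% were called in the interaction. No other marker of the list was called. Endothelial markers summed to 318 to 375, 271 to 413, 326 to 377 and 265 to 414 CPM, pericyte and smooth muscle markers to 77.0 to 120.4, 94.6 to 129, 109 to 149 and 79.4 to 168 CPM, and 0 of 7 tested in each was called in any comparison.

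Some skeletal muscle genes were higher in the untreated depleted group. Ttn and Xirp2, 2 of the 4 tested of 9, were higher in depleted than in WT untreated tumours (log2 change 1.49 ± 0.32 (SE), adjusted p = 0.042 and log2 change 2.71 ± 0.56 (SE), adjusted p = 0.036). Of all genes, 0.889% were called in this comparison. Xirp2 was at 0.398, 0.447, 3.32 and 2.30 CPM in depleted untreated libraries A to D, against at most 0.285 CPM in WT untreated ones. Acta1, the actin of skeletal muscle, was at 1.81, 0.255, 7.28 and 10.2 CPM in depleted untreated libraries A to D against 2.33, 2.10, 3.16 and 4.65 CPM in WT untreated ones. The 9 genes summed to 6.62 to 9.36, 4.66 to 34.0, 5.37 to 12.9 and 7.40 to 10.2 CPM in the groups in the above order. The calls of Ttn and Xirp2 were lost in 10 and 9 of the 16 fits that left out 1 library. Over the 7 other settings of the test, adjusted p ran from 0.0011 to 0.55 for Ttn and from 0.0010 to 0.28 for Xirp2. The part of the muscle genes in the collagen values was not tested. Keratinocyte markers summed to at most 3.36, adipocyte markers to 10.9 to 42.7 and macrophage markers to 24.6 to 117 CPM per library, and 0 genes of these lists and of the melanoma and B cell lists were called in the 5 comparisons.

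Paired chains of types I, IV and VI went together across libraries, and so did some chains of different collagens. No pairs of unrelated genes were examined for comparison. For 9 pairs, log2 CPM minus the group mean was correlated over the 16 libraries, with p-values from 100000 two-sided permutations within groups, adjusted over the 9 pairs. All points of a pair share library, depth and base composition. Col1a1 and Col1a2, both in type I collagen, had r = 0.97 (permutation p = 2.0e-05, adjusted 0.00018) and rho = 0.93 (p = 0.00012, adjusted 0.00054), and r = 0.96 without the 2 libraries farthest from the median of Col1a1. Col4a1 and Col4a2 had r = 0.89 (permutation p = 0.00030, adjusted 0.00068) and rho = 0.84 (p = 0.0010, adjusted 0.0024), and r = 0.82 without the 2 libraries farthest from the median of Col4a1. Col6a1 and Col6a2 had r = 0.94 (permutation p = 0.00010, adjusted 0.00030) and rho = 0.94 (p = 4.0e-05, adjusted 0.00036), and r = 0.91 without the 2 libraries farthest from the median of Col6a1. For each of these pairs r stayed above 0.81 without the farthest libraries.

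Col3a1 lies next to the type V chain gene Col5a2 on chromosome 1 and went with it. Col3a1 and Col5a2 had r = 0.94 (permutation p = 0.00010, adjusted 0.00030) and rho = 0.91 (p = 0.00021, adjusted 0.00063), and r = 0.91 without the 2 libraries farthest from the median of Col3a1, and Col1a1 and Col3a1 had r = 0.65 (permutation p = 0.021, adjusted 0.027) and rho = 0.59 (p = 0.036, adjusted 0.040), and r = 0.70 without the 2 libraries farthest from the median of Col1a1. The difference between these correlations was not tested. Col5a1 and Col5a2, of the same type V trimer, had r = 0.63 (permutation p = 0.030, adjusted 0.034) and rho = 0.64 (p = 0.025, adjusted 0.032), and r = 0.83 without the 2 libraries farthest from the median of Col5a1. Across classes, Col1a1 and Col4a1 had r = 0.69 (permutation p = 0.012, adjusted 0.017) and rho = 0.68 (p = 0.011, adjusted 0.020), and r = 0.82 without the 2 libraries farthest from the median of Col1a1.

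Of the 9 pairs, 2 set a chain beside a marker of cells that make it. Col4a1 and the endothelial gene Pecam1 had r = 0.80 (permutation p = 0.011, adjusted 0.017) and rho = 0.68 (p = 0.015, adjusted 0.022), and r = 0.51 without the 2 libraries farthest from the median of Col4a1, so the relation was weaker without library A of the depleted untreated and library B of the depleted treated group. Col1a1 and Dcn had r = 0.24 (permutation p = 0.40, adjusted 0.40) and rho = 0.21 (p = 0.47, adjusted 0.47), and r = 0.09 without the 2 libraries farthest from the median of Col1a1, and no relation was detected between this pair at the low level of Dcn.

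**Figure D5:**
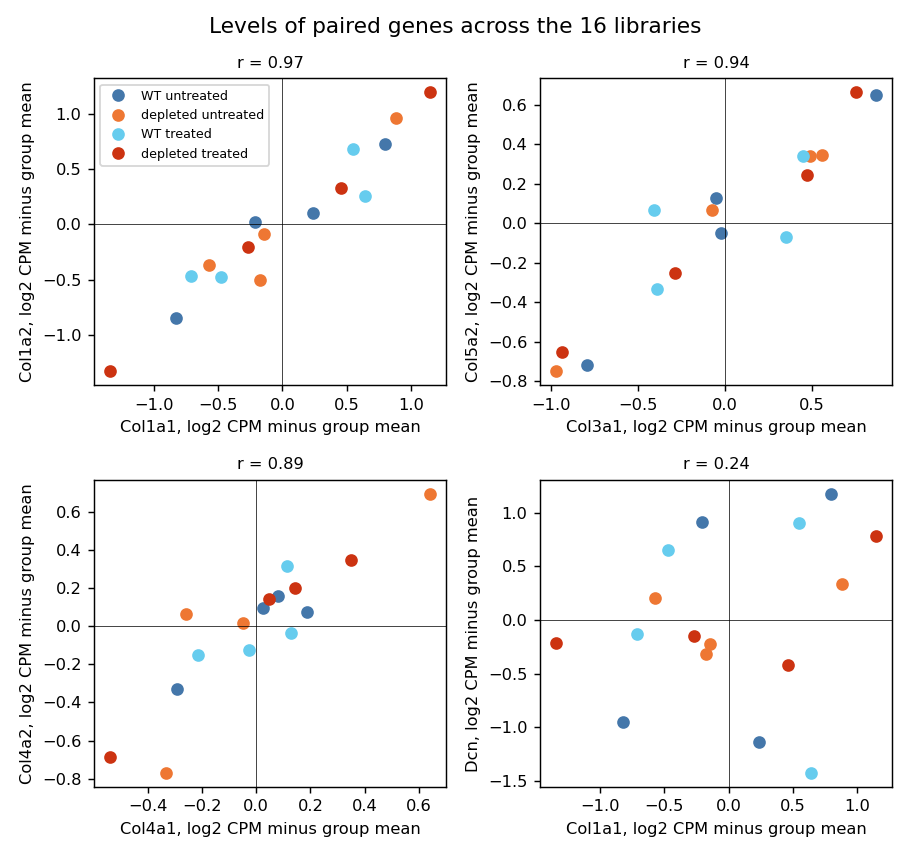
Log2 CPM minus the group mean (both axes) of 4 pairs of genes in the 16 libraries, coloured by group, with Pearson's r above each panel. Points of Col1a1 and Col1a2 (r = 0.97), Col3a1 and Col5a2 (r = 0.94) and Col4a1 and Col4a2 (r = 0.89) follow a line, while those of Col1a1 and Dcn (r = 0.24) scatter.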

How the data were processed

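Per the labels, tumours were dissected, total RNA was extracted, and libraries were made with the Ion Total RNA-Seq Kit v2. Ribosomal RNA was removed and a service provider sequenced and aligned the reads to mm10; the sources used here name no aligner, counter or annotation release. The authors deposited read counts of 38087 genes, counted over whole gene spans (listed length equal to the span in all 38087) without regard to strand, with the GC content in percent of each span in the deposited table. They also deposited log2 values normalized with DESeq (no version stated), centred per gene, where 13 cells were not numbers and 12140 genes did not vary, leaving 25934. Tables of the authors' own fold changes, fold ratios and p-values were deposited too and not used. A further 32 columns of per-library values were not used.

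Columns carry a group and a letter A to D, not the replicate numbers of the labels, so libraries are named by group and letter. The counts went into edgeR 4.0.16 (R 4.3.3) and its two-sided quasi-likelihood F test (TMM, filterByExpr, robust), all 16 libraries in 1 fit, 19340 genes, p-values adjusted by Benjamini-Hochberg over all of them, called at 0.05. Log2 CPM used a prior count of 2. Each SE of an edgeR log2 change was derived from the test, as the absolute change divided by the square root of its F statistic. On simulated counts for the B cell difference in treated tumours (19154 genes in the fit), 58 of 99 genes changed 2-fold and 87 of 98 changed 4-fold were recovered, and 9 of 18957 unchanged genes were called. Simulated counts were drawn independently for each gene, without a GC slope or another effect shared by genes of a library. These rates therefore need not hold for the real libraries. The series gives 4 mice per group, and each library was taken as 1 animal; p-values measure the spread between these libraries. Sequencing reads carry no molecular identifiers, so counting error is a lower bound on the total error.

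Alternatives were DESeq2 1.42.0 size factors and Wald test, limma 3.58.1 voom, no filter, only the groups compared, the GC slope as covariate, the deposited log2 values, and leaving out each library. Values in every library are given for Col1a1, Col1a2, Col3a1, Col4a1, Col4a2 and Col6a1, for the 3 genes of lowest p in each comparison and for the 3 of highest CPM in each class; genes of other lists are named where called, where among the 2 of lowest p in a list, or where they define a cell type. Col2a1, Col9a1, Col25a1 and the contrast averaged over treatment were added after values were seen, and other genes were singled out by overlap of the groups after their values were seen. The collagen genes and the lists were chosen with earlier results of these data known.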

Additional observations from a re-analysis of the deposited data

Results flagged for a closer look

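In groups of 4 libraries, 1 library lay far from the other 3 by Dixon's criterion in 5 of 116 checks, where chance alone gives about 1 in 20. Col18a1 was at 84.7 CPM in library D of the depleted treated group, against 51.9 to 56.4 in the other 3. Col4a5 was at 26.4 CPM in library D of the WT treated group, against 12.3 to 12.7. Col6a1 was at 39.7 CPM in library A of the WT treated group, against 23.8 to 25.6. Fbln1 was at 290.5 CPM in library A of the WT untreated group, against 227 to 234. Smad4 was at 87.5 CPM in library B of the depleted untreated group, against 47.7 to 52.7.

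The interaction test of edgeR, of the B cell difference in treated against untreated tumours, called 6 genes of the collagen-related lists, and all 6 calls were lost with the GC slope as a covariate. Tested genes numbered 29 for collagen making, 12 for breakdown, 8 for receptors, 15 for basement membrane partners, 18 for TGF-beta and 7 for fibroblasts. Of all genes, 7.62% were called. The interaction on the log2 scale was 1.44 for Cyr61, 1.26 for Ddr1, 0.92 for Fbln1, -2.01 for Mmp13, 1.16 for P4ha2 and -0.84 for Smad4. Values of the groups are given with each gene above. Calls of Mmp13, Ddr1, Smad4 and Fbln1 were also lost in 13, 12, 12 and 11 of the 16 fits that left out 1 library. No collagen chain gene was among the 6.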

How the results depend on the processing

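By edgeR, 0 collagen genes were called in each comparison. With only the 2 groups compared in the fit, 2 were called in the B cell difference in treated tumours, 3 in the treatment difference in WT mice and 0 in the 2 others. Such fits called 14.3% of all genes in the B cell difference in treated tumours and 29.6% in the treatment difference in WT mice. The DESeq2 Wald test called 3 in the B cell difference in treated tumours, 1 in that in untreated tumours, 2 in the interaction, 3 in the B cell difference averaged over treatment and 0 in both treatment differences. Of all genes it called 7.72%, 5.13%, 16.8% and 2.82% in the same order. In the treatment differences it called 8.90% in WT mice and 1.74% in depleted mice. DESeq2 size factors, no filter, limma voom, the GC slope as a covariate and the authors' log2 values gave 0 in every comparison. Leaving out each library in turn gave 0 to 4 in the B cell difference in treated tumours, 0 to 1 in that in untreated tumours, 0 to 4 in the treatment difference in WT mice, 0 in that in depleted mice, 0 to 2 in the interaction and 0 to 6 in the B cell difference averaged over treatment. Counts above 0 came without library B of the depleted untreated group. For the interaction they came without libraries A or D of that group or A of the depleted treated group, and the cause was not tested. Without library B, the shares of all genes called were 18.6% and 1.03% in the B cell differences in treated and untreated tumours. They were 21.0% in the treatment difference in WT mice and 6.25% in the averaged B cell difference. For the interaction, the shares were 14.8%, 19.9% and 5.86% in the above order of libraries. Col6a6 changed sign in the B cell difference in untreated tumours on the authors' log2 values (0.36). Some changes near 0, none of them called, changed sign too. With the GC slope as a covariate, the B cell difference in treated tumours was -0.14 for Col4a1 and -0.12 for Col4a2, that in untreated tumours -0.013 for Col3a1, 0.17 for Col4a2 and 0.087 for Col27a1, and the treatment difference in WT mice 0.28 for Col6a1 and -0.027 for Nt5dc1. Col6a1 in WT mice was at 0.0046 with no filter, 0.013 with limma voom and 0.012 on the authors' log2 values, Col4a2 in untreated tumours at 0.010 with only the groups compared, and Col10a1 averaged over treatment at -0.014 with limma voom. Leaving out each library gave -0.043 to 0.47 for Col3a1 and -0.023 to 0.24 for Col4a1 in treated tumours, -0.12 to 0.46 for Col3a1, -0.073 to 0.32 for Col4a1, -0.32 to 0.17 for Col4a2 and -0.24 to 0.076 for Col27a1 in untreated tumours, -0.0046 to 0.58 for Col3a1, -0.061 to 0.11 for Col4a2 and -0.24 to 0.099 for Col6a1 in WT mice, and -0.14 to 0.25 for Col10a1 averaged over treatment. Medians over the collagen genes ranged with left-out libraries from 0.24 to 0.49 in the B cell difference in treated tumours, -0.02 to 0.28 in untreated tumours and -0.18 to 0.11 in the treatment difference in WT mice. Interaction calls were lost in 13, 12, 12 and 11 of 16 fits that left out 1 library for Mmp13, Ddr1, Smad4 and Fbln1, and in 0 for P4ha2 and Cyr61. All 6 were lost with the GC slope as a covariate and with the authors' log2 values. No paired analysis was possible because the columns carry letters and not the replicate numbers of the labels.

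Depth limits the chains under 1 CPM, such as Col17a1 with 161 and Col6a5 with 145 counts over 16 libraries. Standard errors of collagen log2 changes in the B cell difference in treated tumours had a median of 0.32 and ran from 0.18 to 0.68. Changes much under 2-fold could not be told from the spread. Larger ones were not called either, up to a log2 change of 1.36 for Col2a1. Counts over whole spans include introns and antisense genes, and leaving out library B of the depleted untreated group (GC slope -0.72) moved the calls.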
